A study of Mus musculus with 12 samples.

Results

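The step from DN1 to DN2a was described by comparing the DNase I hypersensitive sites (DHSs) of 2 DN1 libraries with those of 2 DN2a libraries, 4 of the 12 DNase-seq libraries of this series. DNase-seq maps open chromatin: DNase I cuts DNA where no nucleosome covers it, the small fragments released are sequenced, and stretches rich in cuts are reported as peaks. All cells came from LSK cells, the lineage-negative SCA1+ KIT+ stem and progenitor cells of mouse marrow (C57BL/6J). They were cultured ex vivo on a high density of the immobilized Notch ligand Delta1ext-IgG. DN1 cells were sorted as KIT++CD44+CD25- from cultures with SCF, FLT3L, IL-6 and IL-11. DN2a cells were sorted as KIT++CD44+CD25+ from cultures that also received IL-7. The methods also state that the DN stages were harvested one after another. Stage, IL-7 and time in culture therefore cannot be told apart here. The series also holds 2 libraries of the later DN2b stage (KIT+CD44loCD25+, also with IL-7), 3 of freshly isolated LSK cells and 3 of control LSK cultures on IgG without Notch ligand. Replicates came from independent LSK isolates according to the methods, which also state that successive DN stages were harvested from an induction, so libraries of different DN stages can stem from the same LSK isolate. Which ones do is not given in the labels, the replicate numbers used here follow accession order and are not matched across stages, and p-values here measure only the spread between libraries.

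The peaks of the 4 lists on chromosomes 1 to 19 and X were merged where they overlapped by 1 bp or more, which gave 117607 sites. A site was gained when both DN2a libraries and no DN1 library had a peak in it, and lost in the reverse case. By this rule 2264 sites (1.93%) were gained and 10816 (9.20%) were lost, and 37795 sites (32.1%) were kept, with a peak in all 4 libraries. The lists differed in length, with 96436 and 69391 peaks in DN1 and 68478 and 57729 in DN2a, and a longer list gives its group more sites by this rule. The comparison was therefore repeated with the 32952 highest-scoring peaks of each list, the length of the shortest of the 12 lists. At equal lengths there were 46279 merged sites, of which 3042 (6.57%) were gained, 3395 (7.34%) lost and 21305 (46.0%) kept. The lowest score kept by this limit was 49 and 32 in the DN1 lists and 36 and 25 in the DN2a lists, and the peaks left out had that score or less. Far more sites were lost than gained in whole lists, and similar numbers at equal lengths. Gained and lost are the rule itself and were not tested.

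T cell development starts when a progenitor receives a Notch signal through a Delta ligand. DN1 cells still hold the potential for myeloid, dendritic and innate lymphoid fates. At DN2a the cells begin to express CD25, the alpha chain of the IL-2 receptor encoded by Il2ra, and T cell genes switch on under TCF-1 (Tcf7), GATA-3, RUNX and E proteins. PU.1 (Spi1), an ETS family factor of progenitors and myeloid cells, is still present at DN2a, and commitment with the rise of Bcl11b follows at DN2b. IL-7 acts through JAK1, JAK3 and STAT5.

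The sequences of 9 gained and 4 lost sites are given as examples and do not represent their classes. They are mm10 plus-strand sequence, read 5′ to 3′ from the GRCm38.p6 assembly. The Nck2 and Hmga2-proximal sites were among the 8 highest-ranked of their class, and the others were chosen after their values were seen because they stood apart from peaks of the other group, lay at genes described below, or carried several of the motifs that differed between the classes. Capitals mark matches on either strand to 6 motif families. RUNX proteins were represented by the letters TGTGGT. For TCF-1 and LEF-1 the letters CTTTGAA were searched, and so was the variant that ends in T. GATA factors were represented by AGATAA. For STAT proteins the letters TTCNNNGAA were searched, where N is any base. E-boxes were searched as CAGCTG, and also as the form CACCTG read by the same proteins. For the ETS family the letters GGAAGT were searched. A match is a run of letters and was not tested as a bound site.
Gained, intron of Nck2, chr1:43500257-43500426: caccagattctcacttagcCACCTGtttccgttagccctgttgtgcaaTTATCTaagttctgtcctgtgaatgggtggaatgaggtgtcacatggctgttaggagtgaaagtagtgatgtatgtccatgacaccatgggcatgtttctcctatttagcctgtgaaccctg
Gained, intron of Fstl4, chr11:52919797-52919966: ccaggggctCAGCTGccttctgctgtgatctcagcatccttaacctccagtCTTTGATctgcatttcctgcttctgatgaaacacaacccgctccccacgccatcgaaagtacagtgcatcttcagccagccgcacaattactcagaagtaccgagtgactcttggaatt
Gained, intron of Peli2, chr14:48271197-48271346: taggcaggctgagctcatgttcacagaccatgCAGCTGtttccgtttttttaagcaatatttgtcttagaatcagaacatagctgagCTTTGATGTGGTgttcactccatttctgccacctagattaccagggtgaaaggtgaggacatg
Gained, intron of the lincRNA gene Gm47916, chr13:33569457-33569626: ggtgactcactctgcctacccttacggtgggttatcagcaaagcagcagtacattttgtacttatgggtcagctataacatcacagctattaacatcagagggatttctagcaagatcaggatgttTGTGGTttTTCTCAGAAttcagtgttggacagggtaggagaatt
Gained, intron of Cd28, chr1:60758257-60758466: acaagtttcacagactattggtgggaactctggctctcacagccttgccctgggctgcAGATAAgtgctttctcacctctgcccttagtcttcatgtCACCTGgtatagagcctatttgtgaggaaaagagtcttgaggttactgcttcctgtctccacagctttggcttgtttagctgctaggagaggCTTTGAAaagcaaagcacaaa
Gained, intron of Cd3e at its promoter, chr9:45009197-45009386: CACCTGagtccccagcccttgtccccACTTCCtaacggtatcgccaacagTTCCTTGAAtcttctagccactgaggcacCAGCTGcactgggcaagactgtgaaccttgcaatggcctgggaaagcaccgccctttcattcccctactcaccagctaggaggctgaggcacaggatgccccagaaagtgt
Gained, intron of Runx3, chr4:135136737-135136886: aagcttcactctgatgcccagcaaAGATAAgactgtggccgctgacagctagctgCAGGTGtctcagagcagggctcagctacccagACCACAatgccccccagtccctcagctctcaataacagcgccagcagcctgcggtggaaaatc
Gained, intron of Zbtb16, chr9:48804677-48804846: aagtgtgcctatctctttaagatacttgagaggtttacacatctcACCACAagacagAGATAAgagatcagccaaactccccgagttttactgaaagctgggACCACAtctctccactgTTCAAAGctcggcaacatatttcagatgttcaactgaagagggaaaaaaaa
Gained, between genes upstream of Rag2, chr2:101551437-101551586: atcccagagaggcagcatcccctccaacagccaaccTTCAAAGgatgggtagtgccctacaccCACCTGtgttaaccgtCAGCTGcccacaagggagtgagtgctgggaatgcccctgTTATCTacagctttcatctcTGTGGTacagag
Lost, between genes upstream of Map4, chr9:109914357-109914526: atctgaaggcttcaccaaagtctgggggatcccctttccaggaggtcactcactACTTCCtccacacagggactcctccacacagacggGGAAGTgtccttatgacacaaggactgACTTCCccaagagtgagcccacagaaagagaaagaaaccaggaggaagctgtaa
Lost, between genes upstream of Ampd3, chr7:110710737-110710886: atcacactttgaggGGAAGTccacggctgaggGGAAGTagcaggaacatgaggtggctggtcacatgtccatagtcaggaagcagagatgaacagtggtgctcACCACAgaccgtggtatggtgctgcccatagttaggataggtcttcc
Lost, between genes upstream of Gata3, chr2:9894497-9894666: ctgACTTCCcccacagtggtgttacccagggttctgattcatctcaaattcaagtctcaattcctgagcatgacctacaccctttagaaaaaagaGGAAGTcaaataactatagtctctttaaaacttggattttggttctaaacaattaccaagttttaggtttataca
Lost, intron of the lincRNA gene 4930471E19Rik, chr10:120686217-120686366: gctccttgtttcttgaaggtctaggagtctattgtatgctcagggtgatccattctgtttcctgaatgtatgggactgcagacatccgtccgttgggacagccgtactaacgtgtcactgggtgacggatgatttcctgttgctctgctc
Capitals in the 9 gained sites fall on RUNX, TCF/LEF, GATA, STAT and E-box letters, with an ETS match only at Cd3e. The site upstream of Rag2 holds RUNX, TCF/LEF, GATA and E-box matches within 150 bp. The lost sites near Map4, Ampd3 and Gata3 hold 3, 2 and 2 ETS matches, and the lost site near Hmga2 holds no match to any of the 6 families. Some sites were chosen for their motifs, so these matches follow in part from the choice. In the central 150 bp, 25.1% of all gained sites held none of the RUNX, TCF/LEF, GATA, STAT and E-box letters. At least 3 of these 5 families were in 6.67%. ETS letters were in 38.7% of all lost sites.

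Gained and lost sites were mostly distal. The midpoint of a site lay within 1 kb of the 5′ end of a protein-coding gene for 11.9% of gained sites (95% Wilson interval 10.7 to 13.3) and for 7.77% of lost sites (7.28 to 8.29), against 30.2% of kept sites and 18.7% of all merged sites. At equal lengths the shares were 13.1% of gained, 8.48% of lost, 42.9% of kept and 28.7% of all sites. Without sites that had a peak of the other group within 500 bp, they were 4.49% of gained and 4.59% of lost sites in whole lists. Gained sites were then no longer above lost sites. The intervals here and below cover counting error over sites only. The median distance to the nearest protein-coding start was 28.2 kb for gained, 30.3 kb for lost and 19.7 kb for all sites. Gene bodies outside promoters held 48.1% of gained and 49.5% of lost sites, against 37.8% of kept and 44.1% of all sites. Median GC content over the central 150 bp was 48.7% in both classes, 53.3% in kept and 50% in all sites. In bulk libraries, fewer cells with an open site and weaker opening in each cell cannot be told apart.

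**Figure D1:**
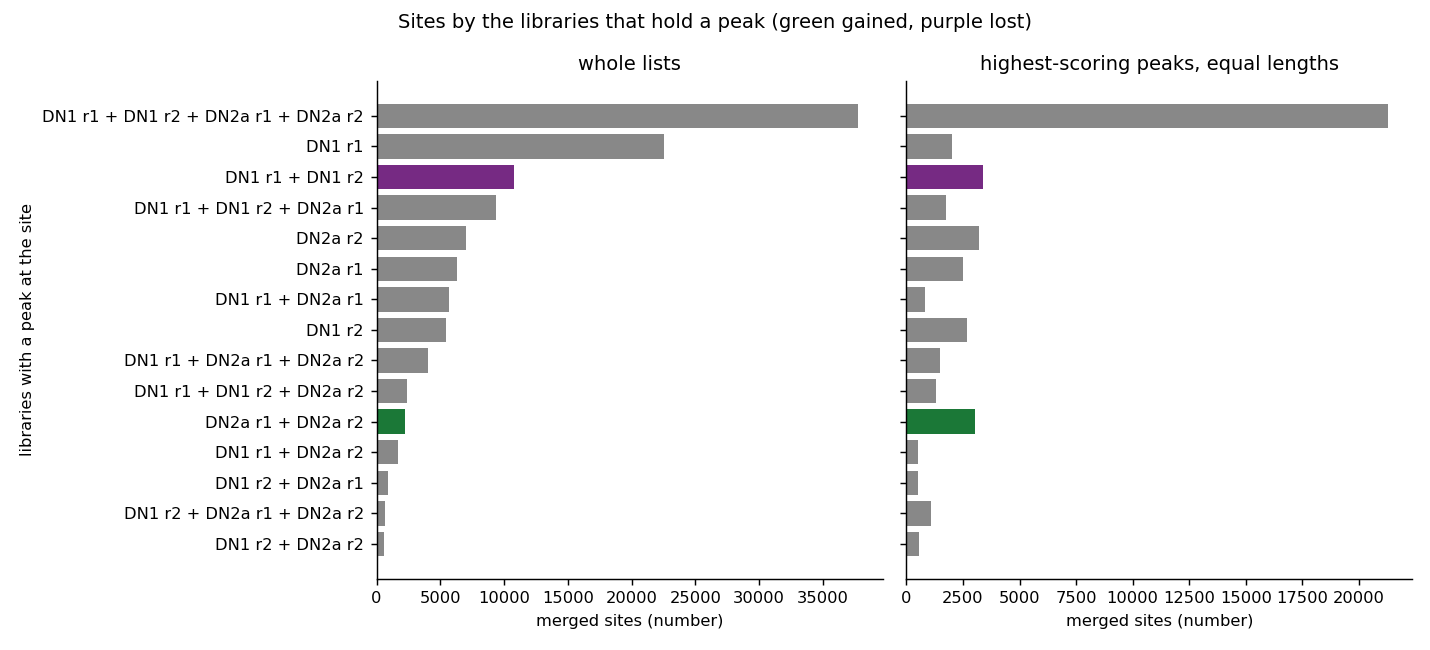
Number of merged sites (horizontal axis) for each combination of DN1 and DN2a libraries with a peak (vertical axis; r1 and r2 are replicates), in whole lists and at equal lengths. In whole lists 22574 sites had a peak in DN1 replicate 1 alone, more than the bar of lost sites (purple, 10816) and far above gained sites (green, 2264). At equal lengths gained (3042) and lost (3395) sites both exceeded each pair made of 1 DN1 and 1 DN2a library.

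Counts moved with the length of the lists. In whole lists 5681 sites had a peak in DN1 replicate 1 and DN2a replicate 1 alone, more than the 2264 gained sites. At equal lengths such mixed pairs held 508 to 836 sites, fewer than gained or lost sites. Of the 3042 sites gained at equal lengths, 544 had no DN1 peak in the whole lists either, 893 had a lower-scoring peak in 1 DN1 library and 1605 in both. Of the 3395 lost sites, 1060 had no DN2a peak in the whole lists, 1242 had a lower-scoring one in 1 library and 1093 in both. Most sites gained or lost at equal lengths thus had a lower-scoring peak in at least 1 library of the other stage. Promoters made up 19.6% and 22.4% of DN1 peaks and 23.6% and 25.4% of DN2a peaks in whole lists, groups that did not overlap, and 33.4% and 33.1% against 33.6% and 35.4% at equal lengths. With 2 libraries against 2 an exact two-sided permutation test cannot give p below 0.333, which both comparisons reached.

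The strongest gained sites fell into 2 kinds. Each peak is given by its score percentile, the rank of its score within its own list with 100 at the top. Over all kept sites the median change from DN1 to DN2a was -3.73 points in whole lists and -0.0956 at equal lengths. A small drop in whole lists, here and below, is therefore not particular to the gene named. Of the 8 highest-ranked gained sites, those at Gsk3b (a kinase of the Wnt pathway), Kmt5c, Wipi1, Mgat1, Ccnk, Pkn2 and Psph had a DN1 peak within 250 bp. At Gsk3b the DN2a percentiles were 99.1 and 99.4, and the nearest DN1 peak began 10 bp away. All 7 lay within 1 kb of a start, with a DN1 peak beside them. The eighth, in an intron of Nck2, which encodes an adaptor that links receptors to the actin cytoskeleton, stood at 90.3 and 90.1 in DN2a and 91.9 and 95.5 in DN2b, and its nearest DN1 peak was 10050 bp away. A peak of the other group lay within 500 bp of 504 gained sites (22.3%) and 1195 lost sites (11.05%), a larger share of gained than of lost sites. Of the 8 highest-ranked lost sites, those at Sp1, Lyl1 and Slc25a23 had a DN2a peak 50 bp away, and those near Hmga2, Txndc2, Snn, Ccdc54 and Nox3 were 6090 to 46590 bp from one.

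When sites with a peak of the other group within 500 bp were left out, the 12 highest-ranked gained and the 12 highest-ranked lost sites stood apart from the other stage, a choice made after the values were seen. All 12 gained sites had a peak in both DN2b libraries, and 10 had none in any LSK or IgG library, against 69.2% and 78.8% of all gained sites. They lay in introns of Nck2 (2 sites), Fstl4, Peli2 and Patz1, at the Il2ra promoter, and near Serpinb9g, Stard3nl, Serbp1, Fam20a, S1pr3 and Supt4a. The site near Stard3nl at chr13:19357397-19357566 (92.7 and 89.6 in DN2a, 92.7 and 95.2 in DN2b) fell beside the T cell receptor gamma genes. PATZ1 is a zinc finger regulator, and its site stood at 89.4 and 86.0. The Il2ra site stood at 89.4 and 84.7, but CD25 was part of the sort, so this is a check of the labels and no finding. Of the 12 lost sites, 11 had a peak in at least 1 LSK library and 9 in all 3, while 4 had none in DN2b. Lost sites as a whole differed from these 12, since 49.6% had no LSK peak and 60.9% had no DN2b peak. The lost site near Hmga2, a chromatin protein of fetal and stem cells, stood at 96.0 and 96.9 in DN1 and at 90.2, 95.1 and 89.7 in LSK, and DN2b replicate 1 had no peak. The lost site at the promoter of Cxcr4, the chemokine receptor of marrow homing, had a DN2a peak 70 bp away. Those at the promoters of Fam84b (89.8 and 83.1 in DN1) and Prg3, an eosinophil granule gene (80.9 and 83.1), were 17670 and 8310 bp from any DN2a peak.

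Gained sites were followed into stages that did not enter the rule. DN2b libraries had a peak at 71.8% and 90.6% of the 2264 gained sites. LSK libraries had one at 9.81%, 8.35% and 12.3%, and IgG cultures at 4.51%, 3.18% and 4.73%. The DN2b mean of 81.2% ± 13.3 (SD, n = 2) exceeded the mean of the other 6 libraries, 7.15% ± 3.57, by 74.1 points. An exact two-sided permutation test over the 28 divisions of these 8 libraries gave p = 0.0357, the smallest it can give, and 0.0714 after Benjamini-Hochberg adjustment over the tests of gained and lost sites, which misses the threshold of 0.05. At equal lengths DN2b held 75.9% and 77.7%, LSK 18.97%, 18.6% and 19.95% and IgG 11.8% to 12.4%, a difference of 61.2 points with an adjusted permutation p of 0.0357. The permutation p before adjustment was 0.0357 there too, and the adjusted value was lower only because lost sites gave the same p. In whole lists 1301 gained sites (57.5%) had a peak in both DN2b and in no LSK or IgG library, and 154 (6.80%) had none in DN2b. Of kept sites 89.3% and 97.9% were found in DN2b, 78.1% to 81.8% in LSK and 47.9% to 53.0% in IgG, so that DN2b exceeded the other 6 libraries by 28.8 points there (exact permutation p = 0.107). Shared isolates and shared IL-7 in DN2a and DN2b cultures move with this result, and their part in it was not tested.

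The result for lost sites changed with list length. In whole lists the DN2b libraries, with 61484 and 111582 peaks, had a peak at 12.6% and 36.8% of lost sites, LSK libraries at 30.8% to 38.4%, and IgG at 13.3% to 16.9%. The means of DN2b and of LSK and IgG differed by 0.211 points (exact permutation p = 1). At equal lengths DN2b held 10.3% and 9.93% of lost sites, below every LSK (44.2% to 48.1%) and IgG library (30.4% to 38.1%). The mean was lower by 29.7 points in DN2b, with an adjusted exact permutation p of 0.0357. At equal lengths 1265 lost sites (37.3%) had a peak in at least 2 LSK libraries and none in DN2b, and 822 (24.2%) had a peak in none of the 8 libraries outside the comparison. As given above, most of these sites had a lower-scoring DN2a peak in the whole lists.

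**Figure D2:**
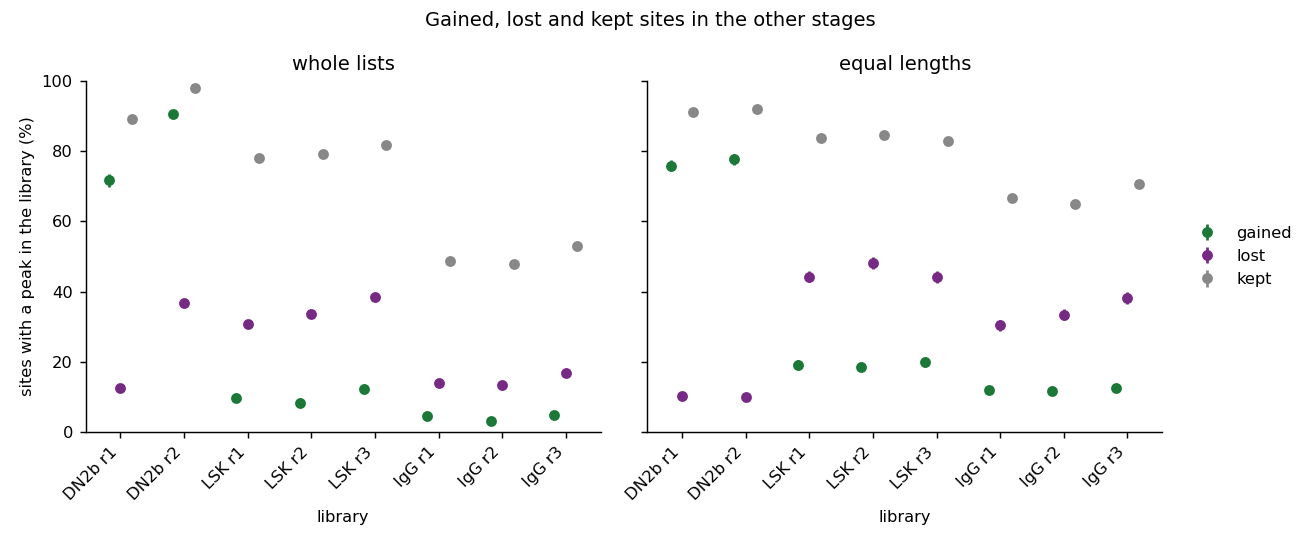
Share of gained (green), lost (purple) and kept (grey) sites that have a peak in each library outside the comparison (vertical axis, %; bars are 95% Wilson intervals), in whole lists and at equal lengths. Gained sites are at 71.8% and 90.6% in DN2b and at or below 12.3% in LSK and IgG, and at equal lengths lost sites are at 10.3% and 9.93% in DN2b and at 30.4% or more elsewhere.

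The letters of gained and lost sites differed. TCF/LEF letters, the sequence of TCF-1 and LEF-1, were in the central 150 bp of 15.6% (95% interval 14.2 to 17.2) of gained and 4.55% (95% interval 4.17 to 4.96) of lost sites, against 6.10% of all merged sites. STAT letters, bound by STAT5 among others, were in 12.8% of gained, 3.45% of lost and 4.48% of all sites. GATA letters were in 14.9%, 7.10% and 8.24%. E-box letters, bound by E proteins, were in 32.7%, 18.9% and 21.8%. RUNX letters were in 38.5%, 27.8% and 24.5%. Away from promoters RUNX letters were in 41.8% of gained, 29.3% of lost and 28.2% of all sites, and at equal lengths in 42.6%, 32.0% and 33.7%, with lost sites no longer above all sites. At least 3 of these 5 families were found together in 6.67% of gained, 0.888% of lost and 1.57% of all sites. The 5 were counted together because each was more frequent in gained sites, so this excess follows in part from that choice.

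ETS letters ran the other way. They were in 38.7% (95% interval 37.8 to 39.6) of lost and 17.7% (95% interval 16.2 to 19.3) of gained sites, against 24.8% of all sites. The longer PU.1-type letters (GAGGAAGT, which contain the ETS letters) were in 14.7% of lost, 2.56% of gained and 6.69% of all sites. The order of gained and lost sites was the same at equal lengths for these 7 families, with TCF/LEF in 14.0% and 4.09%, STAT in 10.03% and 3.21% and PU.1-type letters in 3.19% and 16.4%. RBPJ letters (GTGGGAA), the sequence of the DNA-binding partner of Notch, were in 4.196% of gained and 4.13% of lost sites, with overlapping intervals, and in 3.55% of all sites. C/EBP letters (TTGCNNAA) were in 6.36% of gained, 6.61% of lost and 5.72% of all sites. AP-1 letters (TGANTCA) were in 7.95%, 6.68% and 6.86%, and IRF letters (AAANNGAAA) in 9.45%, 7.96% and 7.44%. At equal lengths the order of gained and lost sites turned for AP-1 (8.05% and 8.19%), IRF (7.8567% and 7.8645%) and RBPJ (3.55% and 3.92%). MEIS/HOX letters (TGATTNAT), of factors of stem cells, were in 1.24%, 1.86% and 1.31%. NF-kB letters (GGGANTTCC) were in 0.751%, 1.22% and 0.937%, and EBF letters (TCCCNNGGGA) in 0.177%, 0.324% and 0.304%. CTCF letters (CCANNAGNNGGC) were in 2.61% of gained and 6.08% of lost sites in whole lists but in 5.85% and 4.30% at equal lengths, and in 9.70% of all sites in whole lists. Away from promoters TCF/LEF letters were in 17.1% of gained and 4.69% of lost sites and ETS letters in 18.7% and 39.9%.

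**Figure D3:**
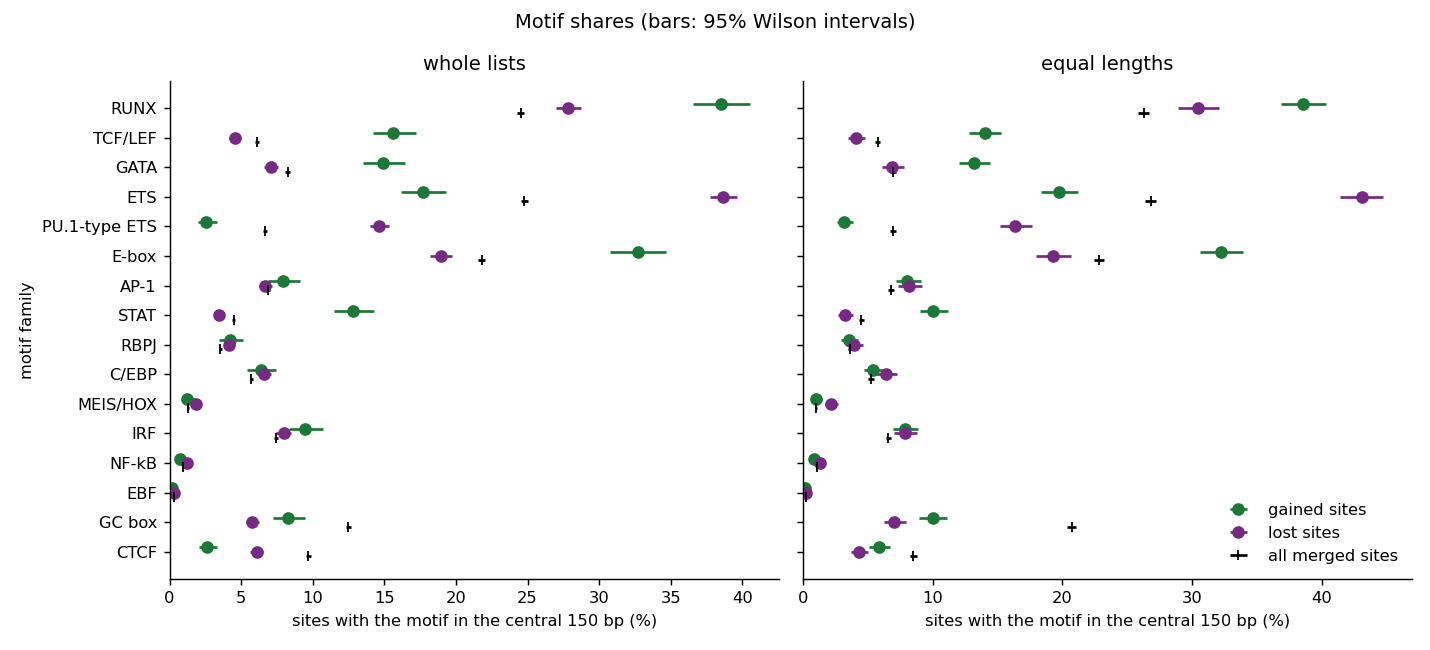
Share of gained (green), lost (purple) and all merged (black) sites with each motif family in the central 150 bp (horizontal axis, %; bars are 95% Wilson intervals), in whole lists and at equal lengths. RUNX, TCF/LEF, GATA, E-box and STAT lie to the right in gained sites, and ETS and PU.1-type ETS in lost sites.

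Motif shares also differed within the gained sites, by where else a site was open. These subsets were chosen after the data were seen and were not tested. STAT letters were in 16.0% of the 1567 gained sites with a peak in both DN2b libraries and in 3.25% of the 154 with none. TCF/LEF letters were in 17.2% and 9.09%. At equal lengths STAT letters were in 11.6% of 2076 and 6.50% of 446 such sites. PU.1-type letters were in 1.85% and 8.44% in whole lists but in 3.13% and 3.36% at equal lengths, with overlapping intervals. The 1785 gained sites open in no LSK or IgG library held RUNX letters in 42.6% and TCF/LEF letters in 17.9%. The 199 gained sites that were also open in at least 2 LSK libraries held them in 19.1% and 6.03%, and GC box letters (GGGCGG) in 22.1% against 5.15%, and the order was the same at equal lengths. Lost sites held ETS letters in 41.4% when at least 2 LSK libraries had a peak and in 36.3% when no LSK or IgG library did, while RUNX letters were in 20.8% and 34.6%.

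Motif shares also differed between kept sites that stood higher and lower in DN2a. Of the 37795 kept sites, 706 (1.87%) had a DN2a percentile higher by at least 25 points with groups that did not overlap, and 2986 (7.90%) were lower by as much. At equal lengths 1192 (5.59%) were higher and 1190 (5.59%) lower. TCF/LEF letters were in 18.4% of the higher and 4.15% of the lower sites, RUNX letters in 50.1% and 32.6%, STAT letters in 9.35% and 3.82%, and PU.1-type letters in 4.39% and 15.2%. At equal lengths TCF/LEF letters were in 11.3% and 4.79%, PU.1-type letters in 5.20% and 16.7% and STAT letters in 7.63% and 3.53%, while RUNX letters were in 40.5% and 36.8%, with overlapping intervals. The site that was higher by most, in an intron of Necab1 at chr4:14967417-14967726, stood at 27.2 and 3.97 in DN1, 93.8 and 95.2 in DN2a and 98.9 and 99.1 in DN2b. Others of the 5 lay in introns of Olfr525 (22.7 and 9.72 in DN1, 91.2 and 91.5 in DN2a) and Specc1 and near Ccdc112, and a further one in Nck2, chr1:43542437-43542646 (45.4 and 7.76 in DN1, 92.7 and 91.5 in DN2a). The 5 that were lower by most lay near Tbx3 (94.0 and 93.9 in DN1, 11.7 and 18.2 in DN2a), Pdgfa, Acvr2a, Ube2e3 and Tdrp. At equal lengths none of these 10 sites was kept in all 4 lists, since their lower peaks were left out.

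Motif shares were also taken over whole libraries, as the 32952 highest-scoring peaks of each and with no site classes. The DN1 and DN2a lists used are those that gave the gained and lost sites at equal lengths. Their order therefore follows in part from those sites and is not a separate result. TCF/LEF letters were in a share (%) of peaks of 4.50 and 4.48 in DN1 and 6.29 and 6.07 in DN2a, 6.32 and 6.15 in DN2b, 3.41 to 3.48 in LSK and 3.27 to 3.58 in IgG. STAT shares were 3.74 and 3.85 in DN1 and 4.79 and 4.82 in DN2a, with 3.56 to 3.71 in LSK. E-box shares were 20.4 and 20.8 in DN1 and 22.5 and 23.9 in DN2a. PU.1-type shares were 7.65 and 8.19 in DN1 and 5.54 and 5.47 in DN2a, and 4.33 and 4.43 in DN2b. ETS shares were 28.4 and 29.7 in DN1 and 24.8 and 24.7 in DN2a. RUNX shares were 24.0 and 25.1 in DN1 and 25.4 and 25.7 in DN2a, all above LSK (17.4 to 18.3). GATA shares were 6.43 and 5.62 in DN1 and 6.73 and 6.68 in DN2a. RBPJ shares were 3.49 and 3.55 in DN1 and 3.46 and 3.43 in DN2a, the smallest of these differences. DN1 and DN2a did not overlap for these 8 families, nor for MEIS/HOX and NF-kB, and with 2 libraries a group the exact test cannot pass.

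**Figure D4:**
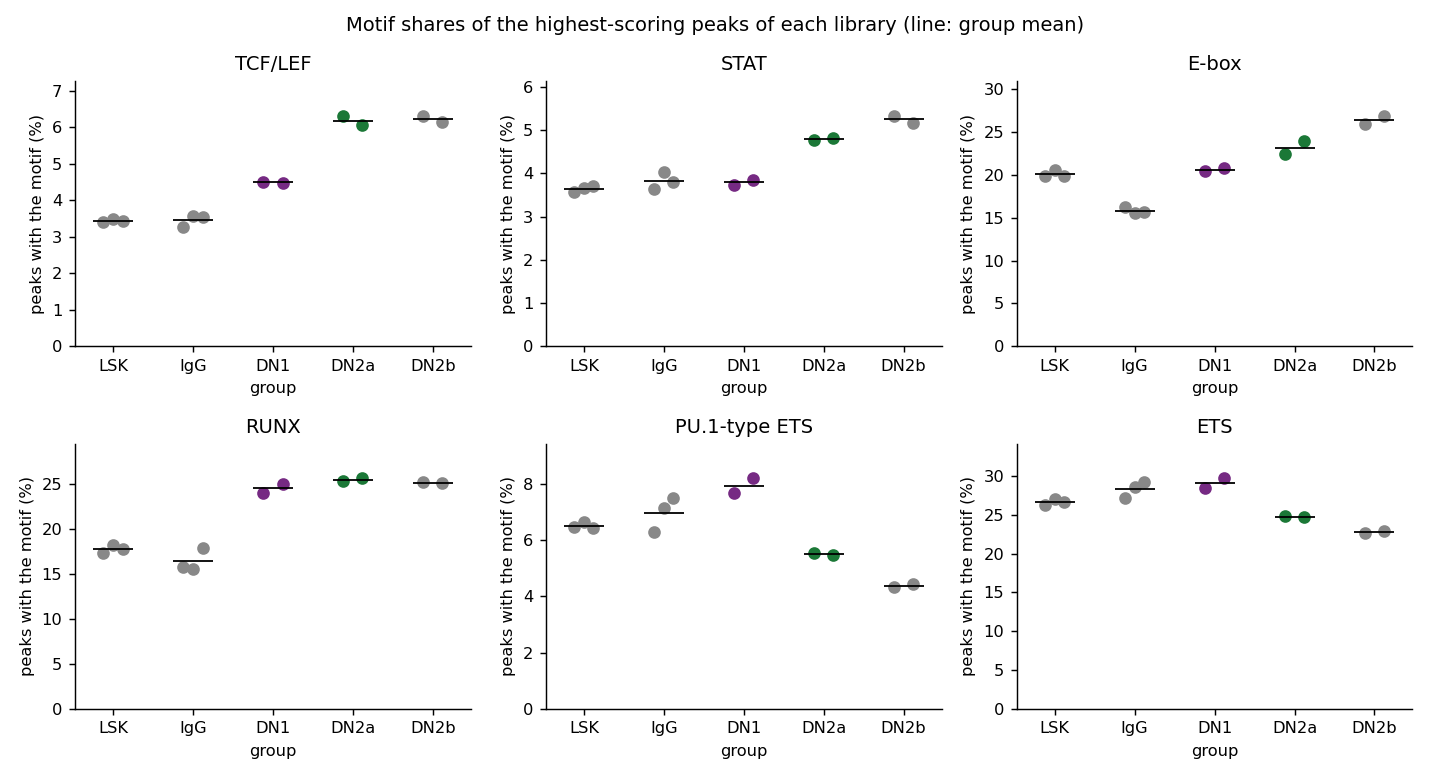
Share of the 32952 highest-scoring peaks of each library (points; vertical axis, %) with 6 motif families, by group, with the group mean as a line. TCF/LEF, STAT and E-box are higher in both DN2a (green) than in both DN1 libraries (purple), PU.1-type ETS and ETS are lower, and RUNX is close in both and higher than in LSK and IgG.

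T lineage genes held gained sites more often than lost ones. Sites were assigned to the nearest protein-coding start within 100 kb, and 1575 of 21755 genes (7.24%) had a gained and 5751 (26.4%) a lost site. Of 24 T lineage genes (T cell receptor complex, its signalling and early T identity), 12 had a gained site, with 26 sites in all, and 7 had a lost one. At equal lengths, where the shares of all genes were 9.62% and 10.8%, 16 of the 24 had a gained and 5 a lost site. Without Il2ra, a gene of the sort, 11 of 23 had a gained site in whole lists and 15 at equal lengths. Bcl11b, the commitment factor, had 5 gained and no lost sites, with percentiles of 11.7 to 50.6 in DN2a, none of which was gained at equal lengths, where 2 other sites of the gene were gained. A further 7 lay downstream of its 3′ end, between chr12:107464877-107465026 and chr12:107566537-107566706, where 3110018I06Rik was the nearest coding gene, and 2 of them were also gained at equal lengths. The intronic site at chr12:107993177-107993326 stood at 45.5 and 50.6 in DN2a and 55.9 and 71.6 in DN2b, and the downstream site at chr12:107495697-107495846 at 69.6 and 56.2 in DN2a and 74.4 and 80.6 in DN2b. The nearest DN1 peak was 78930 to 180610 bp from these 7 sites. The list was chosen with earlier results known, so its count describes these genes only.

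Thy1, a surface protein of T cells, had 4 gained and no lost sites, and Cd28, the co-stimulatory receptor, had 3 and none. At equal lengths Thy1 had 2 gained sites and Cd28 had 1. The intronic Cd28 site shown above stood at 66.1 and 62.5 in DN2a and 82.3 and 88.6 in DN2b, with no LSK or IgG peak. Cd3e, a chain of the T cell receptor complex, had gained sites at its promoter (68.5 and 74.1 in DN2a, 92.7 and 98.8 in DN2b) and 1.925 kb upstream (60.9 and 71.1), and a lost site farther upstream (41.7 and 27.8 in DN1). Rag1, a recombinase gene of T cell receptor assembly, had a gained site 12.2 kb from its start (59.5 and 68.9), and the site upstream of Rag2 shown above, named after its values were seen, stood at 51.3 and 52.5 and at 86.9 and 88.6 in DN2b. Il2ra had 2 gained and 2 lost sites. At equal lengths Il2ra and Cd3e had 2 gained and no lost sites each, and Rag2, with 2 gained sites in whole lists, had none. Of the 24 genes 5 had lost and no gained sites, Gata3 with 3, Cd27 and Txk with 2 each, and Cd5 and Cd6 with 1 each. At equal lengths Gata3, Cd27 and Cd6 had 1 lost and no gained site each, while Cd5 had 1 gained and no lost site and Txk 1 of each. The lost site upstream of the Gata3 start stood at 71.6 and 58.6 in DN1 and had no DN2b peak. All 3 lost sites at Gata3 lay at least 2410 bp from a DN2a peak.

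Promoters were fewer among the changes. In whole lists 60 promoters (0.276%) opened, with a peak in both DN2a and no DN1 library, and 319 (1.47%) closed, and at equal lengths 178 (0.818%) opened and 159 (0.731%) closed. Open promoters made up 54.6% and 50.2% of all genes in DN1 and 50.6% and 48.3% in DN2a in whole lists. At equal lengths they made up 43.4% and 43.1% against 43.1% and 43.8%. Of the 24 T lineage promoters 11 and 10 were open in DN1, 13 and 12 in DN2a and 16 and 20 in DN2b, and 1 to 5 in the LSK and IgG libraries. Il2ra, a gene of the sort, was among them. Without it the counts of the other 23 were 11 and 10 in DN1 and 12 and 11 in DN2a, so that the groups met (exact permutation p = 0.667), and 4 and 6 against 10 in each DN2a library at equal lengths. Cd3e, Cd3g and Il2ra opened, and Cd27, a co-stimulatory receptor of progenitors and T cells, closed (35.7 and 42.9 in DN1) and was open again in DN2b (55.9 and 76.8). At equal lengths, with Il2ra, 4 and 6 were open in DN1 and 11 in each DN2a library, Txk and Tcf7 also opened and none closed. The Bcl11b promoter was open in all 4 and stood at 69.7 and 61.8 in DN1, 96.5 and 95.2 in DN2a and 97.4 and 96.4 in DN2b. Tcf7 stood at 43.6 and 45.2 in DN1 and 59.5 and 59.5 in DN2a, and Rag1 at 29.4 and 53.4 and 49.3 and 66.5, where the groups overlapped.

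**Figure D5:**
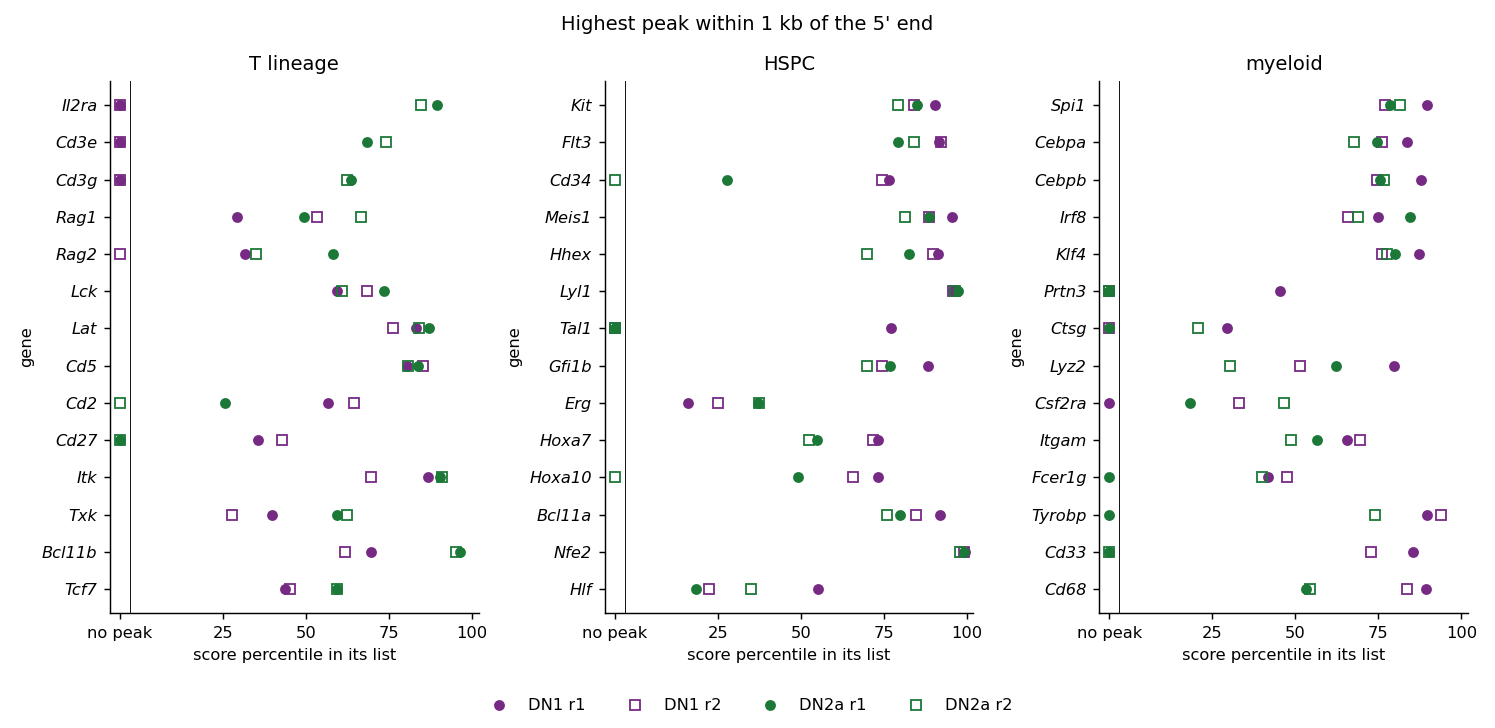
Score percentile of the highest peak within 1 kb of the 5′ end (horizontal axis; left column, no peak) for the genes of 3 lists (T lineage, HSPC for stem and progenitor, and myeloid) with a peak in any of the 4 libraries, DN1 purple and DN2a green, replicate 1 filled and replicate 2 open. Cd3e, Cd3g and Il2ra have no DN1 peak, Bcl11b is at 69.7 and 61.8 in DN1 and 96.5 and 95.2 in DN2a, and Cd33 has no DN2a peak.

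Genes of early T cell regulators held both gained and lost sites. Of 24 such genes, 11 had a gained and 14 a lost site in whole lists, against 7.24% and 26.4% of all genes, and 6 had both. Bcl11b, Tcf7, Lef1 and Gata3 are also on the T lineage list, and their sites count in both. At equal lengths 14 had a gained and 13 a lost site, against 9.62% and 10.8% of all genes. Ikzf1, which encodes Ikaros, had 3 gained and 2 lost sites. Its gained site 5.89 kb upstream stood at 83.8 and 80.7 in DN2a, and its lost site 6.87 kb inside stood at 79.2 and 68.4 in DN1. Myb, a progenitor and T cell regulator, had 1 gained site (75.4 and 68.9) and 4 lost ones, 1 of them at 80.9 and 71.7 in DN1, but 3 gained and 1 lost at equal lengths. Tox had 3 gained and 2 lost sites, all intronic, and 1 and 0 at equal lengths. Genes named after their values were seen were Runx3, Fli1 and Zbtb16. The gained Runx3 intron site stood at 81.3 and 78.5, 4190 bp from the nearest DN1 peak, and a lost intron site 20.5 kb from the same start at 62.0 and 56.9 in DN1. A gained Fli1 intron site stood at 77.8 and 72.1. Zbtb16, which encodes PLZF of innate-like lymphocytes, had 2 gained sites (69.6 and 56.2 for the site shown above) and 1 lost site, 1770 bp from the nearest DN2a peak.

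Genes of the Notch pathway had 1 gained site in all and 24 lost ones. Of 23 genes, 9 (39.1%) had a lost site, against 26.4% of all genes. At equal lengths 3 (13.04%) had a lost and 5 (21.7%) a gained site, against 10.8% and 9.62% of all genes. Hes1, a direct Notch target, had 5 lost sites, Hey1 4, the receptor Notch2 4 and the Notch protease Adam10 3. None of these 4 genes had a lost site at equal lengths. The strongest of these at Hes1, in an exon 2.05 kb from the start, stood at 60.7 and 68.4 in DN1, and DN2b replicate 2 had a peak there again. The Hes1 promoter had a peak in all 4 libraries, at 98.1 and 98.0 in DN1 and 96.8 and 98.3 in DN2a, against 85.9 to 89.3 in LSK and 17.0 to 37.6 in IgG. The promoter of Nrarp, another Notch target, stood at 87.6 and 84.8 and 87.1 and 82.1. Of the lost Hes1 sites, 4 had a peak in DN2b replicate 2, the longest list.

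Of 23 genes of IL-7 and STAT5 signalling, 2 (8.70%) had a gained site in whole lists and 10 (43.5%) at equal lengths, against 7.24% and 9.62% of all genes. A lost site was found at 7 (30.4%) and 3 (13.04%), against 26.4% and 10.8% of all genes. Bcl2, a survival gene, had 2 gained sites, at 62.3 and 35.1 in its intron and 11.7 and 20.5 just upstream. Il7r had 2 lost sites, and its promoter stood at 90.8 and 92.9 in DN1 and 88.5 and 75.9 in DN2a. At equal lengths the groups overlapped there (73.1 and 85.0 in DN1, 76.2 and 57.8 in DN2a). Jak1 and Socs3, a kinase and an inhibitor of this pathway, had 4 lost sites each, and 3 of the lost Socs3 sites had a peak in DN2b. At equal lengths Socs3 had 2 lost sites, Jak1 and Il7r had none, and Bcl2 had no gained site. The promoter of Socs2, a STAT5 target, stood at 70.7 and 47.4 in DN1, 82.0 and 80.7 in DN2a and 93.5 and 93.4 in DN2b, and was chosen after its values were seen. Promoters of the same list went both ways in whole lists. Those of Bcl2, Ccnd3 and Stat3 also stood higher in both DN2a libraries. Lower ones were Mcl1 (97.0 and 95.2 in DN1, 92.7 and 85.3 in DN2a) and Pik3r1 (96.0 and 95.2, 89.9 and 90.6). Also lower were Pik3cd (89.4 and 89.1, 87.6 and 84.7) and Socs1 (96.0 and 95.2, 94.2 and 94.5). So were Pim1 (97.7 and 98.7, 96.2 and 97.5) and Bcl2l1 (97.9 and 97.3, 94.2 and 93.8). At equal lengths Mcl1, Pik3r1 and Bcl2l1 stayed lower in both DN2a libraries, and Bcl2 and Stat3 higher. At Cish the groups overlapped, as did Socs1, Pim1 and Pik3cd at equal lengths. DN2a cultures had IL-7 and DN1 cultures did not.

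Genes of stem, progenitor and myeloid cells held lost sites more often than gained ones, as all genes did in whole lists (26.4% against 7.24%). Of 22 stem and progenitor genes 3 had a gained and 11 a lost site, and 3 and 8 at equal lengths, where 9.62% of all genes had a gained and 10.8% a lost site. Cd34 had 2 lost sites and 1 gained one, and its promoter stood at 76.5 and 74.6 in DN1, 27.9 in DN2a replicate 1 and had no peak in DN2a replicate 2. Lmo2 had 2 gained and 1 lost site, and Bcl11a and Gata2 2 lost sites each. At equal lengths Cd34 and Lmo2 had 1 gained and 1 lost site each, and Bcl11a and Gata2 had neither. Of 21 myeloid genes 1 had a gained and 11 (52.4%) a lost site, and 1 and 6 at equal lengths. Csf1r, the M-CSF receptor, had 4 lost sites, Cebpa 3, Klf4 3 and Irf8 2 with 1 gained. At equal lengths Csf1r and Cebpa had 3 lost sites each, Klf4 had none, and Irf8 had 1 gained and none lost. A lost Cebpa site 19.6 kb upstream stood at 70.7 and 63.2 in DN1 and had no peak in any of the other libraries, with the nearest DN2a peak 510 bp away. The Cd33 promoter closed (85.4 and 72.7 in DN1), and that of Spi1 stood at 89.8 and 77.0 in DN1 and 78.6 and 81.5 in DN2a. Open myeloid promoters numbered 13 and 12 of 21 in DN1 and 9 and 12 in DN2a, against 15 to 16 in IgG cultures, and stem and progenitor promoters 14 and 13 of 22 and 13 and 11 (exact permutation p = 0.667 for both). At equal lengths the latter were 12 and 11 against 9 in each DN2a library, and Cd34 and Hoxa10 closed. Over all genes the share with an open promoter was also lower in DN2a in whole lists on average (54.6% and 50.2% in DN1, 50.6% and 48.3% in DN2a). It was 43.4% and 43.1% against 43.1% and 43.8% at equal lengths.

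Markers of other cells were read to see what else the gates could hold, beside shares of all genes of 7.24% with a gained and 26.4% with a lost site in whole lists and 9.62% and 10.8% at equal lengths. The promoter was open at 54.6% and 50.2% of all genes in DN1 and 50.6% and 48.3% in DN2a in whole lists. At equal lengths it was open at 43.4% and 43.1% against 43.1% and 43.8%. Of 16 mast cell and basophil genes 0 had a gained and 3 a lost site (Hdc, Il4 and Mitf, 2 each), and 3 and 1 at equal lengths. Of their promoters 5 and 4 were open in DN1 and 4 and 6 in DN2a. Those of Cpa3, a mast cell protease (85.0 and 67.2 in DN1, 81.3 and 77.7 in DN2a), Mitf and Mcpt8 had a peak in all 4 libraries, and 10 had none in any, among them Fcer1a, Ms4a2, Gata1 and Tpsb2. Of 16 NK and innate lymphoid genes 5 had a gained and 9 a lost site in whole lists, but 6 and 3 at equal lengths. Of their promoters 10 and 9 were open in DN1 and 8 and 6 in DN2a, but 4 and 5 in DN1 and 6 and 5 in DN2a at equal lengths. In whole lists the promoter of Ifng opened and those of Eomes and Il1rl1, the IL-33 receptor, closed, and Il1rl1 had 4 lost sites (1 at equal lengths). The promoters of Klrd1 (96.0 and 94.2 in DN1, 85.5 and 70.0 in DN2a) and Klrb1c (92.7 and 88.7 in DN1 and 85.0 and 87.7 in DN2a), receptors of NK cells, and of Gzmb had a peak in all 4 libraries, and 5 promoters had none in any, Ncr1 and Klrk1 among them. At equal lengths the groups overlapped at Klrb1c (78.6 and 76.2 in DN1, 68.8 and 78.4 in DN2a). Gzma, a granzyme, stood at 43.6 and 33.0 in DN1 and 82.0 and 80.7 in DN2a. Of 16 B lineage genes 3 had a gained and 6 a lost site. Blnk had 3 lost sites (1 at equal lengths). The promoters of Vpreb1, of the surrogate light chain (92.7 and 88.7 in DN1, 90.3 and 90.6 in DN2a), Bank1 and Ebf1 had a peak in all 4 libraries, and 8 of the 16 had none in any, Pax5, Cd79a and Cd79b among them. At equal lengths 3 had a gained and 5 a lost site. Of 16 erythroid and megakaryocyte genes 0 had a gained and 4 a lost site, with 2 lost sites each at Alas2 and Vwf, and 1 and 0 at equal lengths. Of 16 dendritic genes 1 had a gained and 6 a lost site, with 3 lost sites at Tcf4, the factor of plasmacytoid dendritic cells, and 0 and 3 at equal lengths, where Tcf4 had none. Of their promoters 11 and 10 were open in DN1 and 9 and 10 in DN2a, and 8 and 10 against 8 and 9 at equal lengths. Siglech, of plasmacytoid dendritic cells, stood at 86.3 and 86.9 in DN1 and 54.9 and 56.2 in DN2a, and Itgax, a dendritic and myeloid integrin, at 73.4 and 63.2 and 32.6 and 46.5. Bst2, also of plasmacytoid dendritic cells, stood at 89.4 and 91.1 in DN1 and 97.7 and 91.5 in DN2a. In Batf3, H2-Aa and H2-Eb1 the groups overlapped. The part of such cells in the lost sites was not tested. Among the genes of the sort, Kit stood at 90.5 and 84.2 in DN1 and 85.0 and 79.2 in DN2a, and Cd44 at 91.1 and 81.3 in DN1 and 76.2 and 74.98 in DN2a. Both gates required these proteins.

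Some genes outside the lists had clusters of sites. The genes with the most gained sites were 3110018I06Rik (7), Iqgap2 (5), Tnfrsf8 (5), Bcl11b (5), Ifngr1 (4) and Thy1 (4), of which Bcl11b and Thy1 are on the lists. Mgat1 and Stard3nl had 3, as did the list genes Cd28, Themis, Ikzf1, Tox and Ifng. Tnfrsf8 encodes CD30 and Ifngr1 the interferon gamma receptor, and at equal lengths they had 0 and 3 gained sites. Lost sites were most frequent near Vav3 (9), 4933416C03Rik (8), Zfp36l2 (7), Rin2 (7), Trak1 (7), Phactr2 (7), Trib1 (7) and Slc45a1 (7). Zfp36l2, an RNA-binding protein of progenitors and lymphocytes, had 6 lost sites at equal lengths, while Vav3, an exchange factor of lymphocyte receptors, had 0. Zfp36l2 also had 2 gained and 11 kept sites.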

How the data were processed

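The authors trimmed adapters, aligned reads to mm10 and called peaks with hotspot2 (false discovery rate 0.05). The lists are 1 per library. BWA 0.7.12 and SAMtools 1.2 are named in the submitters' processing notes. Each deposited list gives 150-bp peaks with 1 score, a whole number of unstated meaning, from which only the order of peaks in a list was taken. The deposited lists hold no read totals, so depth is unknown. The score was turned into a percentile of its list (ties at their mean rank). Equal-length lists took the 32952 highest-scoring peaks, ties in seeded random order. Sites, genes (GENCODE M21, 21755 protein-coding genes) and motifs (16 families, both strands, central 150 bp, GRCm38.p6) were computed with Python 3.11.15 and tested on simulated data. Tests were exact permutations over libraries, which measure only the spread between libraries. Members and lists were chosen with earlier results of these data known. Named were the 8 highest-ranked gained and lost sites present at both lengths, 6 at promoters, 8 genes with most sites, up to 4 genes per list with most sites, genes of the sort or drawn by the study (Il2ra, Kit, Cd44, Cd3e, Rag1, Bcl11b, Hes1, Nrarp) and 5 kept sites changed most each way. Other names were chosen after their values were seen. Alternatives changed list length, ties, chromosomes, merging, distance to a peak of the other group, crowding, promoter window and libraries.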

Additional observations from a re-analysis of the deposited data

How the results depend on the processing

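Counts of sites followed list length, and depth is unknown, so a missing peak is not evidence of closed chromatin. Gained sites numbered 3945 when lists were cut to the shortest of the 4 and 1492 in the upper 50% of each list. Lost sites numbered 3395 at equal lengths (3391 with ties in file order), 5762 at the shortest of the 4 and 6099 in the upper 50%. Leaving out 1 library in turn gave 2959 to 9397 gained and 13236 to 33483 lost sites, the counts being 6332 and 16389 without DN1 replicate 1, 2959 and 33483 without DN1 replicate 2, 9397 and 20246 without DN2a replicate 1 and 8650 and 13236 without DN2a replicate 2. Promoter shares ranged over 11.6 to 15.9% of gained and 9.57 to 10.8% of lost sites without 1 library. They were 10.3% of gained and 9.61% of lost sites in the upper 50%, 8.48% and 6.86% when peaks within 150 bp were merged, 4.49% and 4.59% without sites that had a peak of the other group within 500 bp, and 8.04% and 4.43% with a window of 500 bp and 17.8% and 12.7% with 2.5 kb. The lost share was 8.48% at equal lengths and 8.38% with ties in file order.

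The excess of DN2b over LSK and IgG at gained sites passed the threshold at equal lengths (61.2 points, and 60.9 with ties in file order, adjusted p = 0.0357 by exact permutation) and missed it at adjusted p = 0.0714 in the other alternatives, with 46.7 to 70.4 points without 1 library. Before adjustment its exact permutation p was 0.0357, the smallest possible, in every setting. Whether it passed therefore depended only on the p of lost sites and says nothing about the excess itself. At lost sites the difference turned to -29.7 points at equal lengths, -29.9 with ties in file order, -17.0 at the shortest of the 4, -0.0241 with merging within 150 bp and -1.55 without sites close to a peak of the other group, and was 3.52 to 12.5 without 1 library. The cause was not tested. Kept sites higher in DN2a numbered 1192 at equal lengths, 1185 with ties in file order, 1821 at the shortest of the 4, 2223 with a change of 10 points in place of 25 and 791 to 1810 without 1 library. Kept sites lower in DN2a numbered 1190, 1205, 1493, 8977 and 2337 to 5553 in the same order. Gained minus lost motif shares turned sign for AP-1 (-0.135 points), RBPJ (-0.367), IRF (-0.00780) and CTCF (1.55) at equal lengths, and for EBF (0.0986) with windows of 300 bp. At the shortest of the 4 they also turned for AP-1 (7.71% of gained and 7.76% of lost sites), RBPJ (3.90% and 4.29%), CTCF (6.41% and 4.51%) and EBF (0.304% and 0.260%). With peaks merged within 150 bp 2 of the 8 named gained sites and 7 of the 11 named lost sites met the rule, and 1 and 7 without sites close to a peak of the other group. The choice of sites that stood apart, the T lineage list without Il2ra and the motif subsets were added after seeing the data. No paired analysis was possible because the labels carry no replicate numbers.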

Other observations

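The T cell receptor loci, taken from the annotation with 10 kb on each side, held more gained than lost sites at equal lengths, where 6.57% of all sites were gained and 7.34% lost. The gamma locus on chromosome 13 had 5 gained and 1 lost of 16 sites, the beta locus on chromosome 6 had 8 and 0 of 39, and the alpha and delta locus on chromosome 14 had 9 and 1 of 32. In whole lists the counts were 3 and 2 of 25, 5 and 3 of 61, and 4 and 3 of 101, against 1.93% and 9.20% of all sites. At equal lengths the gamma locus held 5 and 7 peak sites in DN1 and 14 and 11 in DN2a, the beta locus 19 and 23 against 32 in each DN2a library, and the alpha and delta locus 14 and 15 against 28 and 23. The groups did not overlap at any of the 3 loci at equal lengths, but in whole lists they overlapped at all 3, with 15 and 10 peak sites in DN1 and 18 and 11 in DN2a at the gamma locus, 48 and 39 against 45 and 38 at the beta locus, and 78 and 45 against 66 and 59 at the alpha and delta locus. These loci were chosen after the data were seen and were not tested.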
